A study of Mus musculus with 64 samples.

Results

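The cytotoxic granule and killer lectin genes are 10 genes (Gzma, Gzmb, Gzmk, Prf1, Nkg7, Ctsw, Fasl, Klrg1, Klrd1 and Klrk1) of the 55809 genes in each deposited count table. They were taken by gene name, and all 10 were found. Killer lymphocytes store granzymes and perforin in secretory granules and release them onto a target cell, where perforin opens the membrane and the granzymes enter and trigger death. Fas ligand kills by another route, through a death receptor on the target. Killer lectins are surface receptors that activate or restrain such cells. Regulatory T (Treg) cells, the Foxp3-dependent cells that restrain immune responses, use some of the same equipment, and KLRG1 is known as a marker of highly differentiated Treg cells.

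RNA was sequenced in 64 mouse libraries of 28 groups. In the degron experiment every mouse carried Foxp3-AID, in which the Foxp3 protein is fused to a plant degron, and every mouse received 5-ph-IAA for 7 days. The groups were ROSA26-TIR1(F74G), a plant ligase subunit that destroys the fusion protein when the drug is present, and ROSA26-WT, which lacks it. TIR1 lies behind a loxP-flanked stop and is therefore made where the Foxp3 locus drives Cre. Thymic Treg cells (CD73-negative) and active Treg cells (CD62L-low) of spleen and lymph nodes came from adult heterozygous females, which also held Treg cells with an intact Foxp3, with 3 TIR1 and 3 WT libraries each. Treg cells of spleen and lymph nodes of infants had 4 and 4 libraries. For its infant experiments the paper used hemizygous Foxp3-AID males, which held no Treg cells with an intact Foxp3. It reports severe autoimmune disease in neonates in which Foxp3 was degraded. In the reversible-allele experiment, Foxp3-LSL mice carried a Thy1.1 reporter and a stop in Foxp3, and the sorted cells are ones that transcribe this disrupted gene. In CD4-CreERT2 mice (plusFoxp3) 4-hydroxytamoxifen (4-OHT) removes the stop, while CD4-WT mice (minusFoxp3) received the same drug and stayed without Foxp3. These females were heterozygous too and also held normal Treg cells. Both arms were collected as resting (CD62L-high, CD44-low) and active (CD62L-low, CD44-high) cells of spleen and lymph nodes, without treatment (day 0) and on days 3, 7, 14 and 28 of it, as pairs of libraries, n = 2 each. After treatment plusFoxp3 cells were sorted as GFP-positive and minusFoxp3 cells as Thy1.1-positive and GFP-negative, so that restoration and the sort cannot be told apart. Untreated Foxp3GFP mice gave 2 libraries of normal Treg cells per state (GFP Treg).

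Some features of the libraries bear on the results. For the 12 adult degron files the genotype of the GEO sample and that of the library named inside the file are opposite. The name inside the file was followed here, and the GEO attachment would turn the sign of each adult TIR1 against WT fold change. For the 8 infant libraries the title and the genotype field contradict each other, and the name inside each file goes with the title. Their groups therefore go by title (titled TIR1, titled WT), with the true genotype unsettled. Infant titled WT replicate 4 stood apart from the other 3 libraries of its group, so infant results are given with and without it. Library totals were 27753211 to 57419138 read pairs. Foxp3 transcripts stood at 44.3 to 81.5 CPM (the count scaled to a fixed library total, as in counts-per-million) in the minusFoxp3 and the day 0 plusFoxp3 libraries and at 426 to 615 CPM in plusFoxp3 libraries from day 3. In the degron experiment, which acts on the protein, no difference in Foxp3 transcripts passed the test. By the names inside the files, Foxp3 was 76.7 to 93.4 CPM in active TIR1 and 100 to 127 CPM in active WT libraries (log2 fold change -0.42, SE 0.16, edgeR adjusted p = 1.00). The 8 markers of natural killer (NK) cells summed to at most 60.4 CPM, mostly Tyrobp. Both CD8 T cell markers summed to at most 34.4 CPM outside the thymus, mostly Cd8b1. The single markers differed widely within these lists. Ncr1 was at most 0.427 CPM and Klra8 at most 0.0570 CPM in any library, and Cd8a was at most 2.53 CPM outside the thymus. In bulk RNA, fewer cells that express a gene and less RNA per cell cannot be told apart.

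Start-site regions of 7 members were in the RefSeq promoter table (GRCm38.p6), while Ctsw, Klrg1 and Klrd1 were not. Those of Gzmb, Nkg7 and Klrk1 are shown because of their calls in active plusFoxp3 against minusFoxp3 cells. Gzmb and Nkg7 were called higher at day 28 and Klrk1 lower at day 7. The windows are chr14:56262285-56262584 on the minus strand for Gzmb, chr7:43436888-43437187 on the plus strand for Nkg7 and chr6:129623815-129624114 on the minus strand for Klrk1. Capitals mark matches on either strand to a Runx motif (TGTGGTT), an AP-1 motif (TGANTCA) or a T-box motif (GGTGTGA), and a forkhead motif (TGTTTAC), the family of Foxp3, was searched as well.
Gzmb: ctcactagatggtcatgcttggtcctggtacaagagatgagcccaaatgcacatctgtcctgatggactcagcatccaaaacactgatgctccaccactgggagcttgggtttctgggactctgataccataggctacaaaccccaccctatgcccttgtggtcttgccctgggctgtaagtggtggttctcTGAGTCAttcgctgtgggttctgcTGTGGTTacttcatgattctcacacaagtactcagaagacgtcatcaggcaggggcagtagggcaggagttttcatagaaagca
Nkg7: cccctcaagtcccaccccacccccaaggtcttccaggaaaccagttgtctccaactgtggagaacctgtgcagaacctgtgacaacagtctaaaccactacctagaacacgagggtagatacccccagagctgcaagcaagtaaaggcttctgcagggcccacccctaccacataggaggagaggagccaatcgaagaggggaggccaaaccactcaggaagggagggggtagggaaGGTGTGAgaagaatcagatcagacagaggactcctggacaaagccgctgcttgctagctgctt
Klrk1: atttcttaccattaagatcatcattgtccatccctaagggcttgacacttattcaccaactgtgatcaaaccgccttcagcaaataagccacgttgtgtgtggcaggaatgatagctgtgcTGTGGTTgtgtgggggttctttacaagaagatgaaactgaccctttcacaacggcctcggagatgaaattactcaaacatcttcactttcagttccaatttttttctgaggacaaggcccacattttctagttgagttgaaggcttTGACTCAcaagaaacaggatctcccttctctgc

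Gzmb, called higher at day 28, and Klrk1, called lower at day 7, each held a Runx and an AP-1 match. Counted from the start site, the Gzmb matches begin at -34 (Runx) and -58 (AP-1) and the Klrk1 matches at -129 (Runx) and 17 (AP-1). With Gzma, 3 of 7 members held the Runx letters, against 5.27% of all 32851 promoter windows. The AP-1 letters were in 2 of 7 members and in 7.81% of all windows. The T-box letters were in 2 of 7 members, Gzmk and Nkg7, and in 3.98% of all windows. The forkhead letters were in 0 of 7 members and in 3.65% of all windows. No match overlapped another. These are matches of letters and say nothing of binding.

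In active cells, restoring Foxp3 was followed by a rise of Klrg1 and later of Nkg7. Mean Gzmb rose in both arms from day 3 to day 14, and the arms parted at day 28, when minusFoxp3 cells were low again. The killer lectin Klrk1 was called lower at day 7, and Klrd1 lay lower without being called. At day 28, Klrg1, Gzmb and Nkg7 were called higher in plusFoxp3 than in minusFoxp3 cells and no member was called lower (edgeR quasi-likelihood test, adjusted p under 0.05). These are 3 of 10 members tested, while 1.85% of all genes tested were called (0.9% higher and 0.953% lower). The median log2 fold change of the members was 1.45, against 0.03 over all genes.

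Other marker genes moved with the arms at day 28. The activation genes Icos and Cd44, as a summed level, stood at 840 and 804 CPM in minusFoxp3 and at 1365 and 1462 CPM in plusFoxp3 libraries, and Icos, a costimulatory receptor gene, was called higher (log2 fold change 0.98, SE 0.20, edgeR adjusted p = 0.0128). The B cell list of 6 genes summed to 329 and 409 CPM in minusFoxp3 and to 1603 and 2421 CPM in plusFoxp3 libraries, and to 3875 to 3990 CPM in active GFP Treg libraries. Most of this was Ighm, the immunoglobulin mu chain gene, at 288 and 367 CPM in minusFoxp3 and 1564 and 2331 CPM in plusFoxp3 libraries (log2 fold change 2.59, SE 0.22). Ms4a1, a B cell surface protein gene, was low in both arms, at 0.0771 and 0.405 CPM in minusFoxp3 and 1.37 and 0.0413 CPM in plusFoxp3 libraries. The part of these genes in the day 28 results was not tested.

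Klrg1, which encodes the inhibitory receptor KLRG1 for cadherins (chromosome 6, 122247555 to 122259841, minus strand, GRCm39), stood higher at each later time. Its plusFoxp3 libraries held 0.217 and 0.572 CPM at day 0, 0.975 and 1.05 CPM at day 3, 4.95 and 2.67 CPM at day 7, 8.18 and 9.47 CPM at day 14, and 69.2 and 19.5 CPM at day 28. The minusFoxp3 libraries held between 0.0226 and 0.725 CPM at all times. The arms overlapped at day 0 and were apart from day 3 on. Active GFP Treg cells held 33.0 and 85.7 CPM, which overlapped plusFoxp3 cells of day 28, and among plusFoxp3 groups no neighbours from day 3 to day 28 overlapped. Mean Klrg1 was 11.6-fold higher in plusFoxp3 than in minusFoxp3 cells at day 7, 53.7-fold higher at day 14 and 103-fold higher at day 28. By edgeR the log2 fold change missed the threshold at day 7 (3.60, SE 0.82, adjusted p = 0.0633) and passed it at day 14 (5.67, SE 0.90, adjusted p = 0.00433) and day 28 (6.73, SE 0.88, adjusted p = 0.000395). At day 28 leaving out 1 library gave values from 5.53 (without plusFoxp3 replicate 1) to 8.31 (without minusFoxp3 replicate 2), all called. At day 14 the value was 8.45 without minusFoxp3 replicate 1, and without minusFoxp3 replicate 2, the library with 1 Klrg1 read pair, it was 4.85 and not called (edgeR adjusted p = 0.0742).

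**Figure D1:**
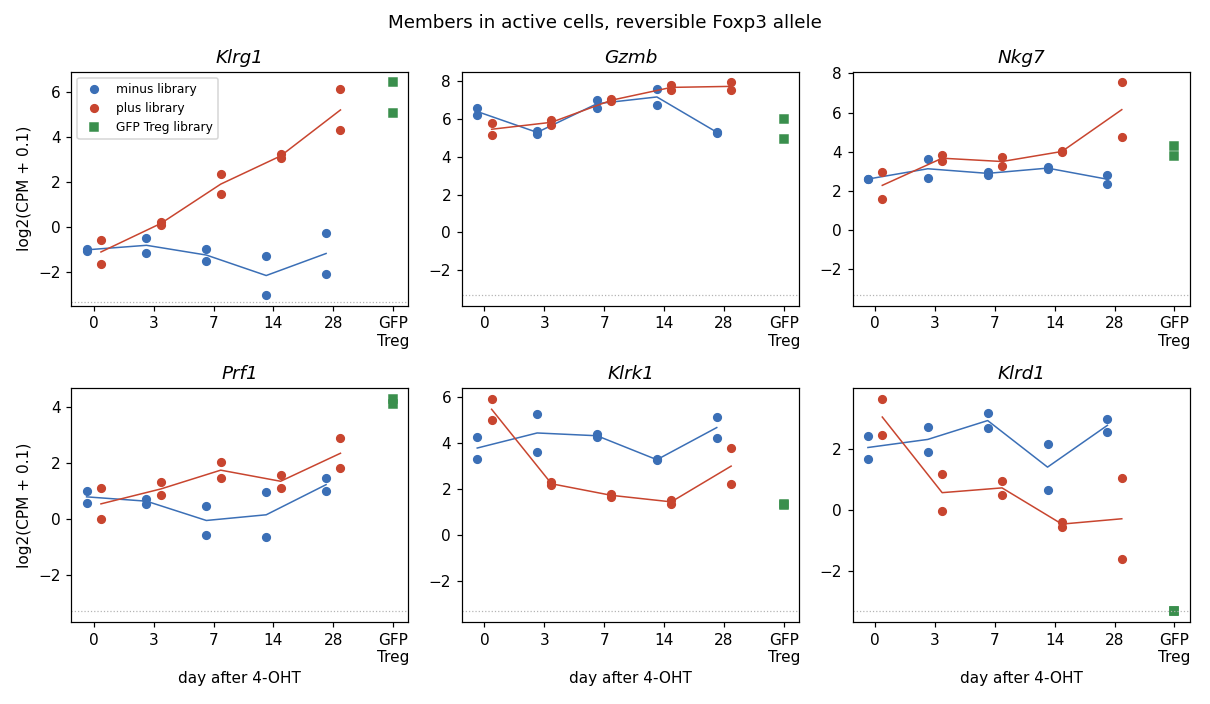
Levels of 6 members in active cells, as log2(CPM + 0.1) with 1 point per library, against the day after 4-OHT (unevenly spaced days at even steps). Lines join the means of the log2 values in minusFoxp3 (blue) and plusFoxp3 (red) cells, green squares are GFP Treg libraries and the dotted line is a level of 0 CPM; Klrg1 in plusFoxp3 cells climbs from 0.217 and 0.572 CPM to 69.2 and 19.5 CPM, and Klrk1 and Klrd1 lie below the minusFoxp3 libraries from day 3.

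Gzmb, the granzyme that cleaves caspases (chromosome 14, 56496295 to 56499717, minus strand), was expressed in active cells of both arms. The minusFoxp3 libraries held 96.0 and 74.6 CPM at day 0, 36.8 and 41.9 CPM at day 3, 130 and 97.8 CPM at day 7, 193 and 109 CPM at day 14, and 40.2 and 38.9 CPM at day 28. The plusFoxp3 libraries held 55.3 and 35.2 CPM, 62.7 and 51.8 CPM, 123 and 134 CPM, 187 and 227 CPM, and 185 and 246 CPM on the same days. The arms overlapped at days 7 and 14, when both were high, and lay apart at day 28, when the minusFoxp3 libraries were low again. Mean Gzmb was 5.46-fold higher in plusFoxp3 cells at day 28 (log2 fold change 2.46, SE 0.33, edgeR adjusted p = 0.000457), and it was called without any 1 of the 4 libraries. At day 0, before treatment, both plusFoxp3 libraries lay below both minusFoxp3 libraries (log2 fold change -0.90, SE 0.31, edgeR adjusted p = 0.999). Within the minusFoxp3 arm the log2 difference of day 28 from day 0 was -1.09 (SE 0.31, edgeR adjusted p = 1.00).

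Nkg7 encodes a membrane protein of cytotoxic granules that takes part in degranulation (chromosome 7, 43086497 to 43087673, plus strand), and its day 28 value depended strongly on 1 library. The plusFoxp3 libraries held 186 and 27.0 CPM at day 28, against 7.02 and 5.01 CPM in minusFoxp3 cells. From day 0 to day 14 the plusFoxp3 libraries held 2.88 to 16.1 CPM and the minusFoxp3 libraries 5.89 to 12.1 CPM. Both plusFoxp3 libraries of day 28 were thus above every earlier library, and they lay far from each other. The log2 fold change was 4.16 (SE 0.67, edgeR adjusted p = 0.00254) with all libraries, 2.16 without plusFoxp3 replicate 1 (edgeR adjusted p = 0.0280), 4.96 without plusFoxp3 replicate 2, and 3.90 and not called without minusFoxp3 replicate 2 (edgeR adjusted p = 0.0572).

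Klrk1 and Klrd1 went the other way. Klrk1 encodes NKG2D, an activating receptor for stress-induced ligands, and Klrd1 encodes CD94, the chain that pairs with NKG2 receptors other than NKG2D. They lie close together on chromosome 6, at 129587286 to 129600827 (Klrk1, minus strand) and 129568745 to 129575738 (Klrd1, plus strand). Klrk1 in plusFoxp3 libraries was 32.0 and 59.5 CPM at day 0, 4.36 and 4.76 CPM at day 3, 3.31 and 3.07 CPM at day 7, 2.43 and 2.79 CPM at day 14, and 13.4 and 4.53 CPM at day 28. The minusFoxp3 libraries held 18.8 and 9.76 CPM at day 0, 12.1 and 37.5 CPM at day 3, 18.7 and 20.7 CPM at day 7, 9.42 and 9.58 CPM at day 14, and 34.6 and 18.3 CPM at day 28. Before treatment the plusFoxp3 libraries were the higher ones, and from day 3 they were the lower ones, with no overlap at any time. By edgeR the day 7 difference passed the test (6.16-fold lower, log2 fold change -2.58, SE 0.55, adjusted p = 0.0452). The log2 fold change was -2.40 (SE 0.55, edgeR adjusted p = 0.0853) at day 3, -1.86 (SE 0.55, edgeR adjusted p = 0.168) at day 14 and -1.55 (SE 0.53, edgeR adjusted p = 0.210) at day 28. The day 7 call was lost without minusFoxp3 replicate 1 (log2 fold change -2.65), plusFoxp3 replicate 1 (-2.66) or plusFoxp3 replicate 2 (-2.47), with edgeR adjusted p-values of 0.174, 0.365 and 0.349.

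Klrd1 showed the same order at a lower level without passing the test. Its minusFoxp3 libraries held 1.47 to 8.88 CPM over all days. Its plusFoxp3 libraries held 5.38 and 12.4 CPM at day 0, 0.875 and 2.16 CPM at day 3, 1.31 and 1.85 CPM at day 7, 0.588 and 0.669 CPM at day 14, and 1.96 and 0.227 CPM at day 28. The plusFoxp3 libraries lay above the minusFoxp3 libraries at day 0 and below them at each later time. The log2 fold change at day 28 was -2.62 (SE 0.78, edgeR adjusted p = 0.129).

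NK cell markers were high in 1 of the 2 active minusFoxp3 libraries at each time. The summed level of 8 NK markers was 4.86 to 60.4 CPM in active minusFoxp3 libraries and 2.39 to 11.4 CPM in active plusFoxp3 libraries. The high values came mostly from Tyrobp, which encodes the adaptor DAP12 (27.7, 13.5, 43.9, 21.5 and 31.3 CPM in the high libraries of days 0, 3, 7, 14 and 28). At day 28 the other minusFoxp3 library, at 7.50 CPM, lay below both plusFoxp3 libraries (9.36 and 11.4 CPM). In these active libraries Ncr1 was at most 0.138 CPM and Klra8 at most 0.0570 CPM. The minusFoxp3 library with more Tyrobp was the one with less Klrk1 at days 0, 3 and 28. At days 7 and 14 the minusFoxp3 libraries were close to each other in Klrk1 (means of 19.7 CPM, SD 1.42, and 9.50 CPM, SD 0.112). The 2 CD8 T cell markers summed to 7.93 to 32.5 CPM in minusFoxp3 and 8.64 to 14.6 CPM in plusFoxp3 libraries, nearly all from Cd8b1. The part of these cells in the lectin results was not tested.

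The other members stayed below the threshold at all times in active cells. Prf1, which encodes perforin (chromosome 10, 61133612 to 61140459), was 7.33 and 3.43 CPM in plusFoxp3 and 1.89 and 2.67 CPM in minusFoxp3 cells at day 28 (log2 fold change 1.26, SE 0.55, edgeR adjusted p = 0.394). Gzma, a tryptase-type granzyme (chromosome 13, 113230359 to 113237515), was 1.39 and 5.19 CPM in plusFoxp3 cells at day 28 and 0.0964 and 0.107 CPM in minusFoxp3 cells (log2 fold change 4.99, SE 1.84, edgeR adjusted p = 0.270), and 1 minusFoxp3 library of day 0 held 4.33 CPM. Gzmk, a related granzyme (chromosome 13, 113308142 to 113362442, sharing 8440 bases with Esm1 on the other strand), held 0.116 to 3.19 CPM in both arms. Ctsw, the cysteine protease cathepsin W (chromosome 19, 5515071 to 5518535), was high throughout, at 136 to 257 CPM. Fasl, the Fas ligand gene (chromosome 1, 161608258 to 161616064), held 3.67 to 12.3 CPM. For Ctsw and Fasl the lowest edgeR adjusted p over the days was 0.121 (Ctsw at day 14, log2 fold change -0.72, SE 0.20).

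Counted by day, the members called in active cells were 0 of 10 at day 0 (3 at an unadjusted p under 0.05, 0 by DESeq2), 0 at day 3 (2 unadjusted, 1 by DESeq2), 1 at day 7 and 1 at day 14 by edgeR. The share of all genes called on these days was 0.00481%, 0.274%, 0.568% and 0.732%. To take the day 0 difference between the arms into account, the day 28 difference was set against it in 1 model. Gzmb (log2 difference of the effects 3.36, SE 0.45, edgeR adjusted p = 0.00133), Klrg1 (6.73, SE 1.20, edgeR adjusted p = 0.0115) and Nkg7 (4.30, SE 0.88, edgeR adjusted p = 0.0302) passed, while Klrk1 had -3.25 (SE 0.75, edgeR adjusted p = 0.0592). That is 3 of 10 members, against 0.746% of all genes. Gzmb was called without any 1 library. Nkg7 was lost without any 1 of 6 libraries, down to 2.30 without plusFoxp3 replicate 1 of day 28 (edgeR adjusted p = 0.122), and Klrg1 without any 1 of 4, with adjusted p-values from 0.0520 to 0.0748. Between day 0 and day 28 of the minusFoxp3 arm 0 of 10 members were called by edgeR and by DESeq2 (2 unadjusted), as were 0% of all genes by edgeR.

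Active GFP Treg cells, which had Foxp3 throughout, were compared with minusFoxp3 cells of day 0 and with plusFoxp3 cells of day 28. Against minusFoxp3 cells Klrg1 and Prf1 were called higher and Klrk1 and Klrd1 lower, 4 of 10 members against 10% of all genes. Against plusFoxp3 cells of day 28 Gzmb, Nkg7 and Klrd1 were called lower, 3 of 10 members against 2.01% of all genes. Both comparisons use the same GFP Treg libraries.

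Prf1 was the member that set GFP Treg cells apart upward. The GFP Treg libraries held 17.4 and 19.7 CPM, above all 20 other active libraries, which held 0.536 to 7.33 CPM. The difference from minusFoxp3 cells of day 0 (1.92 and 1.39 CPM) was 11.2-fold (log2 fold change 3.51, SE 0.59, edgeR adjusted p = 0.000789). The difference from plusFoxp3 cells of day 28 did not pass the test (1.78, SE 0.55, edgeR adjusted p = 0.138). Klrg1 was 151-fold higher in GFP Treg than in minusFoxp3 cells of day 0 (log2 fold change 7.25, SE 0.90, edgeR adjusted p = 4.09e-05), and 6.41 on the log2 scale without GFP Treg replicate 2. Against plusFoxp3 cells of day 28 its log2 difference was 0.41 (SE 0.66, edgeR adjusted p = 0.906).

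Klrd1 and Klrk1 were lower in active GFP Treg libraries than in any other active library of the reversible-allele experiment, Klrk1 only slightly (2.43 CPM in the next library). Klrd1 had no read in either library, and with such a group set to 3 counts per library it was at least 70.2-fold lower than in minusFoxp3 cells of day 0 and at least 18.3-fold lower than in plusFoxp3 cells of day 28 (edgeR adjusted p = 0.000259 and 0.00936). The latter bound was 3.81-fold without plusFoxp3 replicate 1, and the call was lost without that library (edgeR adjusted p = 0.134) or either GFP Treg library (0.124 and 0.0722). Klrk1 held 2.41 and 2.35 CPM, 5.99-fold below minusFoxp3 cells of day 0 (log2 fold change -2.56, SE 0.56, edgeR adjusted p = 0.00603). That call was lost without minusFoxp3 replicate 1 (-2.04, edgeR adjusted p = 0.0710) or either GFP Treg library (edgeR adjusted p = 0.0542 and 0.0616).

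Gzmb and Nkg7 were lower in GFP Treg cells than in plusFoxp3 cells of day 28. Gzmb held 31.1 and 64.0 CPM in GFP Treg cells, 4.54-fold lower (log2 fold change -2.18, SE 0.32, edgeR adjusted p = 0.000929), and -2.79 on the log2 scale without GFP Treg replicate 2. Nkg7 held 19.3 and 13.5 CPM, 6.48-fold lower (log2 fold change -2.70, SE 0.63, edgeR adjusted p = 0.0326). Without plusFoxp3 replicate 1 the Nkg7 difference was -0.71 (edgeR adjusted p = 0.921), without plusFoxp3 replicate 2 it was -3.51, and the call was lost without either GFP Treg library (edgeR adjusted p = 0.20 and 0.223). Per kilobase of counted exon, mean Gzmb was 150 CPM, Nkg7 116 CPM, Ctsw 87.5 CPM and Klrg1 31.3 CPM in plusFoxp3 cells of day 28. In active GFP Treg cells the same scale gave 73.6 CPM for Ctsw, 42.0 CPM for Klrg1, 33.1 CPM for Gzmb and 18.0 CPM for Nkg7. Klrg1 therefore stood above Gzmb per length in GFP Treg cells and below it in plusFoxp3 cells, as means of 2 libraries each.

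In resting cells Gzmb and Klrg1 started near 0 and were high in plusFoxp3 cells at day 28. Gzmb was called at day 28, 1 of 9 members tested, while 0.945% of all genes were called (0.541% higher and 0.404% lower). The median log2 fold change was 0.62 over the members and 0.01 over all genes. Gzmk had too few reads to be tested in resting cells.

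Gzmb in resting plusFoxp3 libraries was 0.456 and 0.165 CPM at day 0, 1.88 and 1.83 CPM at day 3, 4.53 and 0.967 CPM at day 7, 4.20 and 2.92 CPM at day 14, and 23.3 and 4.05 CPM at day 28. Of the 10 minusFoxp3 libraries 4 held no Gzmb read and the highest held 1.21 CPM. The plusFoxp3 libraries were above the minusFoxp3 libraries at each time, day 0 included. At day 28 the mean was 206-fold higher (log2 fold change 7.74, SE 1.54, edgeR adjusted p = 0.0293). The call was lost without plusFoxp3 replicate 1 (6.02, edgeR adjusted p = 0.159), minusFoxp3 replicate 1 (6.81, edgeR adjusted p = 0.369) or minusFoxp3 replicate 2 (9.41, edgeR adjusted p = 0.201), and the value was 8.50 without plusFoxp3 replicate 2.

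Klrg1 in resting plusFoxp3 libraries was 0.752 and 0 CPM at day 0, 0.199 and 0.695 CPM at day 3, 1.59 and 0.450 CPM at day 7, 2.99 and 0.831 CPM at day 14, and 13.8 and 4.99 CPM at day 28. The minusFoxp3 libraries held 0 to 0.742 CPM. The arms overlapped at days 0 and 3 and were apart from day 7. The day 28 mean was 179-fold higher, and on the log2 scale the difference of 7.29 (SE 1.67) just missed the threshold (edgeR adjusted p = 0.0501). The minusFoxp3 libraries of that day held 6 and 0 Klrg1 read pairs. Without 1 library the mean was 94.8-fold (without plusFoxp3 replicate 1), 263-fold (without plusFoxp3 replicate 2), 89.5-fold (without minusFoxp3 replicate 2) and at least 136-fold (without minusFoxp3 replicate 1) higher, with edgeR adjusted p-values of 0.212, 0.0661, 0.407 and 0.319. At day 28 the NK markers summed to 6.07 to 7.66 CPM in minusFoxp3 and 5.94 to 9.23 CPM in plusFoxp3 libraries, and the CD8 T cell markers to 22.3 to 23.6 CPM and 25.5 to 28.5 CPM. The activation genes Icos and Cd44 summed to 297 and 242 CPM in minusFoxp3 and 669 and 315 CPM in plusFoxp3 libraries. The B cell list summed to 655 and 648 CPM and to 1663 and 1322 CPM, nearly all from Ighm. The part of these genes in the Gzmb and Klrg1 values was not tested.

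**Figure D2:**
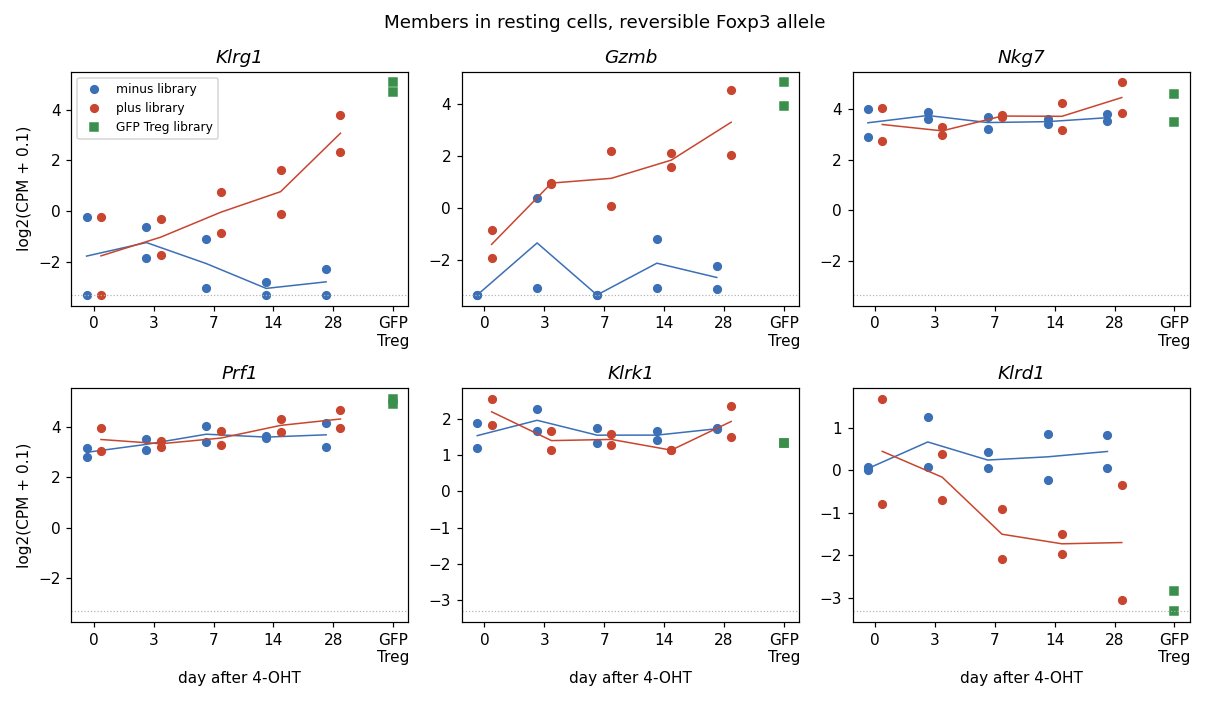
The same 6 members in resting cells, as log2(CPM + 0.1) with 1 point per library, against the day after 4-OHT at even steps, with lines through the means of the log2 values of minusFoxp3 (blue) and plusFoxp3 (red) cells, GFP Treg libraries as green squares and 0 CPM as the dotted line. Gzmb and Klrg1 reach 23.3 and 4.05 CPM and 13.8 and 4.99 CPM in plusFoxp3 cells of day 28, while Nkg7, Prf1, Klrk1 and Klrd1 were not called at any day.

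The remaining members were not called in resting cells at day 28. Nkg7 held 32.5 and 14.3 CPM in plusFoxp3 and 13.5 and 11.4 CPM in minusFoxp3 cells (log2 fold change 0.92, SE 0.50, edgeR adjusted p = 0.651). Prf1 held 15.7 and 25.3 CPM against 17.9 and 9.19 CPM (0.62, SE 0.37, edgeR adjusted p = 0.706). Gzma held 4.18 and 0.207 CPM against 0.0876 and 0.139 CPM (4.26, SE 1.74, edgeR adjusted p = 0.441). Of these, Prf1 overlapped between the arms. Klrd1 held 0.683 and 0.0207 CPM against 0.929 and 1.69 CPM (-1.90, SE 1.02, edgeR adjusted p = 0.648), and Fasl 5.29 and 4.65 CPM against 6.73 and 13.4 CPM (-1.01, SE 0.41, edgeR adjusted p = 0.442). Klrk1 stayed between 2.11 and 5.80 CPM and Ctsw between 186 and 340 CPM over both arms and all days.

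Before day 28 no member was called in resting cells by edgeR. Of 9 members, 0 were called at day 0 (1 unadjusted, 0 by DESeq2), day 3 (0 unadjusted, 0 by DESeq2), day 7 (1 unadjusted, 1 by DESeq2) and day 14 (3 unadjusted, 0 by DESeq2). The shares of all genes called were 0.00487%, 0.0487%, 0.0585% and 0.268%. The day 28 difference set against that of day 0 called 0 of 9 members by edgeR and by DESeq2 (1 unadjusted), against 0.18% of all genes. Day 28 against day 0 of the minusFoxp3 arm called 0 of 9 members (0 unadjusted, 0 by DESeq2) and 0% of all genes by edgeR.

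Resting GFP Treg cells differed from minusFoxp3 cells of day 0 in 4 of 9 members, against 2.91% of all genes. Gzmb was 15.2 and 28.3 CPM against no read, at least 344-fold higher with 3 counts per library (edgeR adjusted p = 0.00429). Klrg1 was 25.7 and 33.7 CPM against 0.742 and 0 CPM, 80.0-fold higher (log2 fold change 6.33, SE 1.46, edgeR adjusted p = 0.0247). Prf1 was 34.6 and 30.3 CPM against 9.01 and 6.90 CPM, 4.08-fold higher (log2 fold change 2.05, SE 0.39, edgeR adjusted p = 0.00644). Klrd1 had 2 read pairs in the GFP Treg libraries together and 88 in the minusFoxp3 libraries (edgeR adjusted p = 0.0496). These calls were fragile. The number of members called was 1 without minusFoxp3 replicate 1, minusFoxp3 replicate 2 or GFP Treg replicate 1, and 2 without GFP Treg replicate 2. The Klrd1 call was lost without any 1 of the 4 libraries (edgeR adjusted p from 0.101 to 0.381). The Klrg1 call was lost without minusFoxp3 replicate 2 (log2 fold change 5.38, edgeR adjusted p = 0.122) or either GFP Treg library (0.0718 and 0.0787), and the Prf1 call without minusFoxp3 replicate 1, minusFoxp3 replicate 2 or GFP Treg replicate 1 (0.0504, 0.0703 and 0.0515). The Gzmb call was lost without minusFoxp3 replicate 1 (0.0578). Against plusFoxp3 cells of day 28, 0 of 9 members were called by edgeR and by DESeq2 (1 unadjusted), with 0.0341% of all genes.

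Single members also differed between the activation states, and counts this small say little of the 10 as a set. Without Foxp3, at day 0, active cells held more Gzmb and Klrk1 and less Prf1 than resting cells, 3 of 10 members against 13.4% of all genes. Gzmb was 96.0 and 74.6 CPM in active cells and had no read in resting cells, at least 1348-fold higher (edgeR adjusted p = 2.87e-07). Klrk1 was 18.8 and 9.76 CPM against 3.61 and 2.20 CPM (log2 fold change 2.29, SE 0.49, edgeR adjusted p = 0.00139). Prf1 was the reverse, 1.92 and 1.39 CPM in active and 9.01 and 6.90 CPM in resting cells (log2 fold change -2.27, SE 0.50, edgeR adjusted p = 0.00216), and its call ended without active minusFoxp3 replicate 2 (-2.06, edgeR adjusted p = 0.0511). In GFP Treg cells Ctsw was called lower in active (134 and 144 CPM) than in resting cells (203 and 292 CPM), 1 of 10 members against 3.12% of all genes (log2 fold change -0.85, SE 0.22, edgeR adjusted p = 0.0285). Without resting GFP Treg replicate 2 the Ctsw difference was -0.58 (edgeR adjusted p = 0.377), and without either active library it was not called (0.285 and 0.104).

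The day 28 effects of the states were compared in 1 model, and 0 of 10 members differed by edgeR (3 unadjusted, 1 by DESeq2), against 0.0818% of all genes. The log2 difference of the active from the resting effect was -5.31 (SE 1.38) for Gzmb, 3.24 (SE 0.85) for Nkg7 and -1.84 (SE 0.66) for Klrk1, with edgeR adjusted p-values of 0.239, 0.239 and 0.611.

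Thymic Treg cells of the degron mice held a different set of members from active Treg cells. In WT mice 6 of 10 members were called between active and thymic cells, 5 higher and 1 lower in active cells, and 23% of all genes were called. Gzmb, Gzmk, Klrg1 and Klrk1 had no read in any of the 3 thymic WT libraries. Active WT libraries held 195, 340 and 379 CPM of Gzmb, 25.4, 5.53 and 10.5 CPM of Klrg1, 2.85, 1.82 and 0.836 CPM of Gzmk and 2.96, 0.238 and 0.340 CPM of Klrk1. With 3 counts per library in the thymus, these were at least 2950.4-fold (Gzmb), 134-fold (Klrg1), 17.7-fold (Gzmk) and 11.4-fold (Klrk1) higher, with edgeR adjusted p-values of 2.76e-06, 0.00013, 0.00824 and 0.00891.

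Ctsw was the thymic member. It held 955, 907 and 951 CPM in thymic WT cells and 154, 159 and 129 CPM in active WT cells, with group means of 938 ± 26.4 (SD, n = 3) and 147 ± 15.7 CPM (SD, n = 3). That is 6.36-fold lower in active cells (log2 fold change -2.58, SE 0.10, edgeR adjusted p = 2.24e-08). Per kilobase it was also the highest of the 10 members in thymic WT cells, at 497 CPM, followed by Nkg7 at 44.6 CPM. Nkg7 was 42.9, 38.4 and 41.0 CPM in thymic and 149, 81.9 and 46.4 CPM in active WT cells (log2 fold change 1.28, SE 0.33, edgeR adjusted p = 0.0150), and was 0.75 without active WT replicate 1 (edgeR adjusted p = 0.0487) and not called without thymic WT replicate 2 (edgeR adjusted p = 0.0517). Prf1 was 4.64, 9.07 and 6.06 CPM in thymic WT cells and 2.49, 0 and 0 CPM in active WT cells (log2 fold change -2.89, SE 1.47, edgeR adjusted p = 0.186). Without active WT replicate 1, which held most of the Klrk1 reads, Klrk1 and Klrg1 were still called (edgeR adjusted p = 0.00702 and 0.000124), and the Klrk1 bound was 2.80-fold. The thymic cells held 54.1 to 62.8 CPM of the CD8 T cell markers, and active WT cells 11.1 to 15.3 CPM. Of 5 genes of developing thymocytes, Rag1, Rag2 and Ptcra had no read in the WT thymic libraries. The list summed to 163, 192 and 170 CPM in thymic WT and 52.3, 62.6 and 56.4 CPM in active WT libraries, mostly from Cd1d1, and Dntt held 3.19, 0.736 and 7.03 CPM in thymic WT libraries. The part of such cells in the results was not tested.

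**Figure D3:**
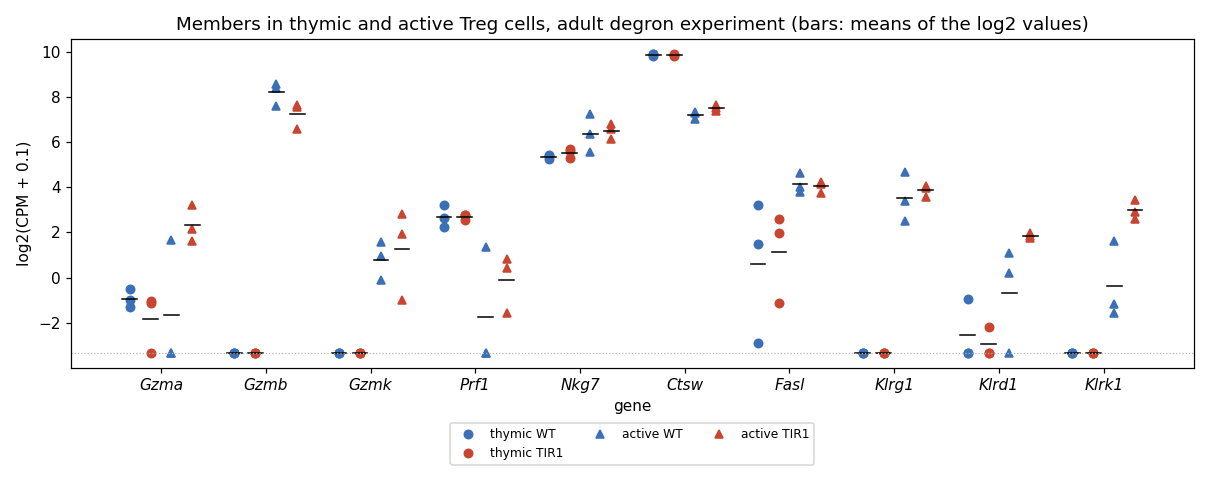
All 10 members in the adult degron libraries, as log2(CPM + 0.1) with 1 point per library, for thymic (circles) and active (triangles) Treg cells of WT (blue) and TIR1 (red) mice as the file headers name them; bars are means of the log2 values and the dotted line is 0 CPM. Gzmb, Gzmk, Klrg1 and Klrk1 lie at 0 CPM in all 6 thymic libraries, and Ctsw is higher there, at 897 to 960 CPM, than in the active libraries.

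Foxp3 degradation in adults changed no member past the threshold. In thymic Treg cells 5 members could be tested, and 0 were called by edgeR (0 unadjusted), as were 0% of all genes. DESeq2 called 0 of these 5 as well, and 156 of all 14245 genes tested. At an unadjusted edgeR p under 0.05, 7.37% of all genes passed. Thymic TIR1 libraries held 921, 960 and 897 CPM of Ctsw, with a mean of 926 ± 32.1 CPM (SD, n = 3) against 938 ± 26.4 CPM in WT (log2 fold change -0.02, SE 0.05, edgeR adjusted p = 0.989). Nkg7 held 38.6, 50.9 and 49.3 CPM in thymic TIR1 cells (log2 fold change 0.18, SE 0.16, edgeR adjusted p = 0.910).

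In active adult Treg cells 0 of 10 members were called by edgeR and by DESeq2. Of all genes, 0% were called by edgeR and 21 of 14554 by DESeq2. At an unadjusted p under 0.05 there were 2 members, Gzmb and Klrk1, against 4.62% of all genes. Gzmb was 185, 95.7 and 200.1 CPM in TIR1 and 195, 340 and 379 CPM in WT libraries, and the groups overlapped (log2 fold change -0.95, SE 0.32, edgeR adjusted p = 1.00). Klrk1 was 5.96, 7.36 and 10.8 CPM in TIR1 and 2.96, 0.238 and 0.340 CPM in WT libraries (log2 fold change 2.73, SE 0.94, edgeR adjusted p = 1.00). Klrd1 (3.83, 3.47 and 3.28 CPM against 0, 2.02 and 1.05 CPM) and Ctsw (180.5, 198 and 165 CPM against 154, 159 and 129 CPM) did not overlap either, which makes 3 members against 10.1% of all genes. Klrg1 was 15.7, 16.7 and 11.8 CPM in TIR1 libraries, within the WT range. Gzma was 2.95, 9.08 and 4.36 CPM in TIR1 and 0, 0 and 3.06 CPM in WT libraries (log2 fold change 2.38, SE 1.65, edgeR adjusted p = 1.00). Nkg7, Prf1, Fasl and Gzmk overlapped between the groups, with log2 fold changes from -0.17 to 0.97. All these directions are those of the file headers, by which the 4 Treg cell markers summed to 1454 to 1621 CPM in active TIR1 and 1739 to 1894 CPM in active WT libraries. The TIR1 effect in thymic cells set against that in active cells called 0 of 10 members by edgeR and by DESeq2 (0 unadjusted). Of all genes it called 0% by edgeR and 71 of 14769 by DESeq2.

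In infants the members split into a group that was higher in titled TIR1 cells (Gzma, Gzmb, Gzmk, Prf1) and a group that was lower (Ctsw, Klrg1, Nkg7), and whether these differences passed the test depended on 1 library. With all 8 libraries 0 of 8 members tested were called by edgeR (5 unadjusted, 3 by DESeq2). Of all genes, 0.0185% were called by edgeR and 1108 of 16209 by DESeq2. At an unadjusted p under 0.05, 17.4% of all genes passed. The groups did not overlap for 2 members, Gzmb and Prf1, against 8.73% of all genes. Without titled WT replicate 4, 7 of 9 members were called, in a fit that called 1774 of 16136 genes. Replicate 4 was singled out by its values in these same data, members included. The adjusted p-values without it are therefore no independent support for a difference.

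Gzmb held 33.7, 39.6, 29.1 and 25.3 CPM in titled TIR1 libraries and 3.58, 2.23, 1.86 and 20.9 CPM in titled WT libraries. The last of these, replicate 4, lay near the titled TIR1 libraries. The log2 fold change was 2.18 (SE 0.80, edgeR adjusted p = 0.224) with all libraries and 3.66 (edgeR adjusted p = 5.46e-06) without replicate 4. Gzma held 5.43, 7.24, 2.69 and 3.53 CPM against 0.174, 0.494, 0.544 and 2.71 CPM, with log2 fold changes of 2.27 (SE 0.72, edgeR adjusted p = 0.158) and 3.55 (edgeR adjusted p = 0.000444). Gzmk held 2.14, 2.95, 0.601 and 1.16 CPM against 1.34 CPM in replicate 4 and no read in the other 3 titled WT libraries (edgeR adjusted p = 0.431 with all libraries and 0.000599 without replicate 4). Replicate 4 was thus the only titled WT library with Gzmk reads.

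Prf1 did not rest on replicate 4. It held 11.8, 9.61, 10.9 and 9.96 CPM in titled TIR1 and 7.15, 6.84, 5.67 and 6.65 CPM in titled WT libraries. Its log2 fold change was 0.70 (SE 0.14, edgeR adjusted p = 0.0726) with all libraries and 0.71 (edgeR adjusted p = 0.0139) without replicate 4. The difference in level was thus alike, and the call was not.

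Ctsw held 127, 85.5, 102 and 86.4 CPM in titled TIR1 and 218, 222, 217 and 110 CPM in titled WT libraries, with log2 fold changes of -0.92 (SE 0.23, edgeR adjusted p = 0.108) and, without replicate 4, -1.11 (edgeR adjusted p = 0.000162). Klrg1 held 1.13, 2.88, 2.32 and 2.79 CPM against 6.20, 9.10, 11.2 and 2.06 CPM, with log2 fold changes of -1.62 (SE 0.48, edgeR adjusted p = 0.137) and -1.92 (edgeR adjusted p = 0.00174). Nkg7 held 27.4, 28.5, 15.7 and 22.6 CPM against 54.5, 43.5, 42.9 and 16.8 CPM, with -0.73 (SE 0.33, edgeR adjusted p = 0.301) and -0.98 (edgeR adjusted p = 0.00379). In each of these genes replicate 4 fell among the titled TIR1 libraries. Fasl held 3.41 to 7.91 CPM in titled TIR1 and 6.52 to 8.70 CPM in titled WT libraries and was not called in either fit. Klrd1 and Klrk1 were at or below 0.562 CPM in all infant libraries.

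Of other cell types' genes in the infants, the NK markers summed to 12.1 to 14.8 CPM in titled TIR1 and 2.98 to 17.7 CPM in titled WT libraries. Most of this was Eomes, a transcription factor of NK and memory T cells, at 12.2, 9.54, 10.6 and 11.7 CPM in titled TIR1 and 1.94, 3.96, 3.23 and 16.1 CPM in titled WT libraries. Ncr1 and Klra8 had no read in any infant library, and the CD8 T cell markers summed to 14.9 to 20.3 CPM and 16.0 to 19.0 CPM. The activation genes Icos and Cd44 summed to 529, 539, 380.1 and 449 CPM in titled TIR1 and 203, 172, 151 and 415 CPM in titled WT libraries. This came from Icos, at 461, 469, 329 and 386 CPM against 143, 110.4, 100 and 354 CPM, the last again being replicate 4. The part of these genes in the result was not tested.

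**Figure D4:**
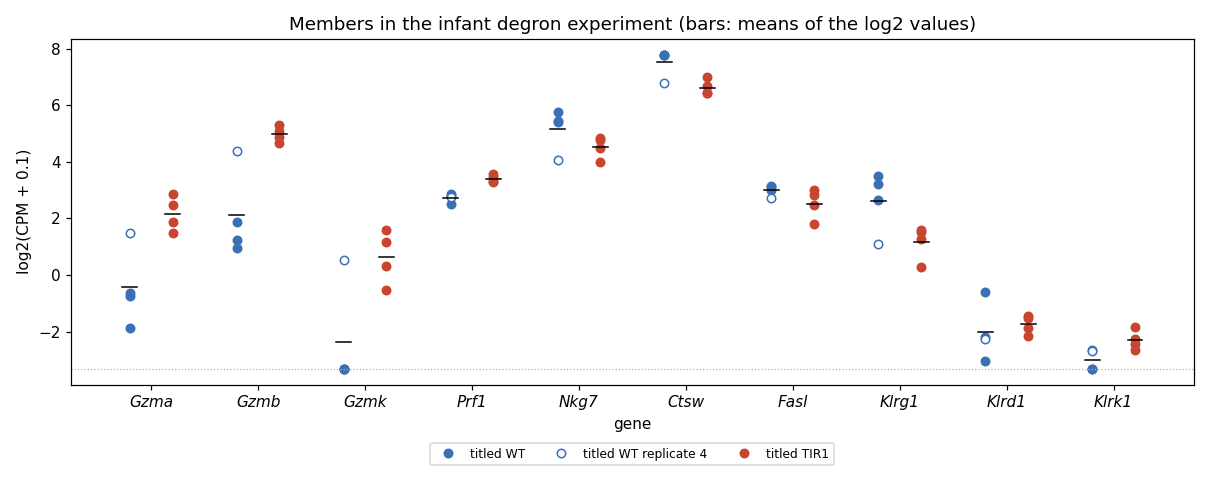
All 10 members in the infant libraries, as log2(CPM + 0.1) with 1 point per library, for titled WT (blue) and titled TIR1 (red) cells, with titled WT replicate 4 drawn open; bars are means of the log2 values and the dotted line is 0 CPM. Replicate 4 lies beside the titled TIR1 libraries for Gzma, Gzmb, Gzmk, Ctsw, Klrg1 and Nkg7, and with its own group for Prf1.

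The wider pathway was read from fixed lists in active cells at day 28. Among regulators of the cytotoxic programme, 2 of 15 tested were higher in plusFoxp3 cells and 3 lower, against 0.9% and 0.953% of all genes. Tbx21, which encodes T-bet, rose by 2.58 on the log2 scale (SE 0.59, edgeR adjusted p = 0.0310). Tcf7, a factor of less differentiated T cells, fell (-1.46, SE 0.22, edgeR adjusted p = 0.00158) and so did Zeb2 (-1.98, SE 0.43, edgeR adjusted p = 0.0215). The other two, named after their values were seen, were Hopx (0.84) and Irf4 (-0.88). The median of this list was 0.05, against 0.03 over all genes.

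Of the 12 chemokines, cytokines and their receptors, 2 were higher and none lower. The chemokine receptor gene Cxcr3 was 347 and 149 CPM in plusFoxp3 and 24.6 and 33.4 CPM in minusFoxp3 cells (log2 fold change 3.12, SE 0.41, edgeR adjusted p = 0.000395). The chemokine gene Ccl5 was 55.4 and 19.2 CPM against 1.70 and 1.77 CPM (log2 fold change 4.44, SE 0.91, edgeR adjusted p = 0.0148). Of 9 death receptor genes, Fas (log2 fold change 1.32, SE 0.21, edgeR adjusted p = 0.00212) and Bid (0.86, SE 0.20, edgeR adjusted p = 0.0380) were higher. Of 11 other killer lectins and partners, Slamf7 (3.08, SE 0.63, edgeR adjusted p = 0.0143) and Klrb1c (3.05, SE 0.60, edgeR adjusted p = 0.0110) were higher, Klrb1c also being among the 8 NK markers. Of 5 other granzymes and serpins tested, Serpinb6b, a granzyme-inhibitor family gene, was higher (1.22, SE 0.28, edgeR adjusted p = 0.0306). Of 15 genes for granule storage and release 0 were called by edgeR, with a list median of 0.06. In resting cells at day 28, Hopx and Ccl5 were higher and Tcf7 and Id2 lower among these lists.

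Likeness was measured as the Pearson correlation of log2 CPM over the 22 active libraries of the reversible-allele experiment, which share time, arm and sort, and is given as a description. Klrg1 ran most like Gm6637 and Sytl1 (r = 0.956 each), Klrd1 most like Dap (0.969) and Klrk1 most like Cd40lg (0.905). Prf1 ran most like Phlpp1 (0.920), Nkg7 like Serpina3g (0.872) and Gzmb like Pvrig (0.823). Among the members, the closest pair was Klrd1 and Klrk1 (r = 0.818), followed by Klrg1 and Prf1 (r = 0.804), and Klrg1 and Klrd1 ran opposite (r = -0.797). Gzmb was near 0 with Prf1 (r = -0.07) and Gzma (r = 0.01).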

How the data were processed

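The authors deposited raw counts of read pairs for each gene. The labels' processing notes name Bowtie2, mm39 and featureCounts, while the paper names the STAR aligner for its bulk RNA. Strand was not used. Per the file headers, counting in the 20 degron libraries left out secondary, chimeric and poorly mapped alignments, which the other 44 kept, so levels were compared within an experiment. The paper describes amplification with SMART-Seq v4 for its adult degron libraries. Here CPM is a count over its library total. Counts were TMM-normalised and tested with edgeR 4.0.16 (limma 3.58.1, R 4.3.3) by the robust quasi-likelihood test on genes with a mean count of at least 10, at a Benjamini-Hochberg adjusted p under 0.05 over all genes tested, and DESeq2 1.42.0, RLE factors, no count filter, only the groups compared, a replicate block and leaving out each library were alternatives. The reversible-allele contrasts used the 22 libraries of a state, state contrasts all 44, and the thymic against active contrasts the 12 adult libraries. The scripts were tested on simulated data.

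All 10 members were to be named in each comparison. Of the pathway lists, up to 3 called genes with the largest log2 fold change and a mean count of at least 50 were named per list and comparison. The members and lists were chosen with earlier results of these data known. The library named inside each adult file set its group. Replicates differed by more than sampling noise (chi-square per degree of freedom of 17.3 or more in 46 pairs), and where nothing says that they are separate animals, p-values measure the spread between these libraries only. Promoter windows (250 bases before to 50 after the start) are from RefSeq. Reads of Gzmk and Esm1, and of Ctsw and Fibp, overlap on opposite strands and cannot be told apart there.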

Additional observations from a re-analysis of the deposited data

Results flagged for a closer look

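In the infant titled WT group replicate 4 lay apart from the other 3 libraries for 4 members by Dixon's ratio, the gap to the nearest library over the whole range: 0.854 for Gzma, 0.909 for Gzmb and 1.00 for Gzmk, where it was the highest, and 0.958 for Ctsw, where it was the lowest. Of 20 combinations of member and infant group, 4 were marked, and chance marks about 1 in 20. They are the same library, so they are not separate events. In active cells the difference between plusFoxp3 and minusFoxp3 differed between day 28 and day 0 for Gzmb (log2 difference 3.36), Klrg1 (6.73) and Nkg7 (4.30) by the edgeR interaction test.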

How the results depend on the processing

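The number of members called was recomputed under 125 alternatives other than leaving out a library, and stayed within 1.5 times in 86. Of 300 alternatives for single members, 243 kept direction and call, 57 kept the direction and lost the call, and 0 reversed. Of 30 called pairs of member and comparison, 11 were called under every alternative run. Factors by RLE moved the median of all genes by at most 0.0323 on the log2 scale and gave 2 members instead of 1 at resting day 28.

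Without the count filter, in resting cells 1, 1, 2, 4 and 3 members were called at days 0, 3, 7, 14 and 28, 2 in GFP Treg against plusFoxp3 cells of day 28, 2 for the effect of day 28 against day 0 and 1 between the minusFoxp3 days. In active cells it was 3, 3, 4, 5 and 6 at days 0, 3, 7, 14 and 28, 7 and 6 for GFP Treg against minusFoxp3 and plusFoxp3 cells, 6 for the effect and 2 between the minusFoxp3 days. Between the states it was 7 (day 0), 3 (GFP Treg) and 3 (effect). The cause was not tested. DESeq2 called 3 members in infants, 1 and 2 at resting days 7 and 28, 1, 3, 3 and 5 at active days 3, 7, 14 and 28, 5 in active GFP Treg against plusFoxp3 cells, 5 for the active effect and 1 for the difference between the states. A fit of only the groups compared, with fewer libraries, called 0 at resting day 28, and 0, 3 and 1 at active days 7, 14 and 28, 0 in active GFP Treg against plusFoxp3 cells and 1 for the active effect.

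Leaving out 1 library gave 0 to 7 members in infants, 5 to 7 in active against thymic WT cells, 0 to 1 at resting day 28, 1 to 2 in resting GFP Treg against minusFoxp3 cells, 0 to 1 at active days 7 and 14, 2 to 4 at day 28, 3 to 5 and 1 to 4 in active GFP Treg against minusFoxp3 and plusFoxp3 cells, 1 to 4 for the active effect, 2 to 3, 0 to 1 and 0 to 1 between the states (day 0, GFP Treg, effect). Where this left 1 library in a group, that library was assumed to vary like the other groups.

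Replicate numbers were shared by the groups. Same-numbered deviations correlated by -0.0770 to 0.0397 in the TIR1 against WT comparisons, with no library best with its own number, and by -0.123 to 0.224 elsewhere. In the reversible-allele comparisons, of 2 pairs each, same-numbered libraries deviated together in all but 3. These were active and resting GFP Treg cells against minusFoxp3 cells and the active arms at day 0. In active against thymic WT cells each library was best with its own number. Library names inside the files also hint at sharing. Active and thymic adult libraries of the same genotype and replicate carry the same leading number, and the reversible-allele names number replicate 1 before replicate 2. No label says what these numbers mark, so they were not taken to pair the samples. Any shared animal or run is thus left out of the main tests. With the replicate block, 2 members were called at resting day 28 and 1 for the difference between the states, and the Klrd1 call in resting GFP Treg cells was lost (edgeR adjusted p = 0.0504). Over all genes the block gave 440 calls against 385 at active day 28 and 260 against 194 at resting day 28. Between active and thymic WT cells it gave 2952 calls against 3404. Crossing the numbers of active GFP Treg and minusFoxp3 cells gave 2264 calls, against 2238 uncrossed. Library totals limit members at a few reads, such as Gzmk, and floors cover counting error only.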
